A study of Mus musculus with 15 samples.

Results

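Interferon gamma signalling was followed through 8 genes in the islets of NOD mice: the ligand Ifng, the receptor chains Ifngr1 and Ifngr2, the receptor kinases Jak1 and Jak2, the transcription factor Irf1, and the feedback inhibitors Socs1 and Socs3. The genes were chosen by name from the known order of the pathway, with earlier results of these data known. All 8 were found among the 48709 genes of the table and passed the filter on low counts. The samples were pancreatic islets of 15 NOD/ShiLtj females of 5 ages from 4 to 12 weeks, set 2 weeks apart, with 3 mice at each, and RNA was sequenced from polyadenylated transcripts. NOD is an inbred strain that develops autoimmune diabetes without treatment. All groups shared strain and sex and differed in age, every age was a different set of animals, and no diabetes-free strain was among the samples. The purpose given for the series was to follow how insulitis develops, that is the entry of leukocytes into the islets.

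Interferon gamma is a cytokine released mainly by activated T cells and NK cells. It binds a receptor built from Ifngr1, which holds the ligand, and Ifngr2, which completes the signalling complex. Jak1 sits on Ifngr1 and Jak2 on Ifngr2, and together they start the signal that reaches gamma-activated sites (GAS) in the DNA. Irf1 is an early target and in turn binds interferon-stimulated response elements (ISRE) of further genes. Socs1 blocks the kinases directly and closes the loop, while Socs3 is best known as the brake on gp130 cytokines such as Il6. In the islet, beta cells as well as leukocytes carry the receptor and can answer the cytokine.

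On the GRCm38 mouse assembly the deposited table placed Ifng (ENSMUSG00000055170) at chr10:118441047-118445892 and Ifngr1 (ENSMUSG00000020009) at chr10:19591949-19610229, both on the plus strand. Ifngr2 (ENSMUSG00000022965) lay at chr16:91547072-91565169 on the plus strand. Jak1 (ENSMUSG00000028530) lay at chr4:101152367-101265282 on the minus strand and Jak2 (ENSMUSG00000024789) at chr19:29251828-29313080 on the plus strand. Irf1 (ENSMUSG00000018899) lay at chr11:53770014-53778374 on the plus strand. Socs1 (ENSMUSG00000038037) at chr16:10783808-10785536 and Socs3 (ENSMUSG00000053113) at chr11:117966079-117970047 lay on the minus strand. All 8 are protein-coding. Jak1 overlaps Raver2 on the opposite strand, which had 305 counts over all samples against 109829 for Jak1, and Irf1 overlaps Gm17334 on the opposite strand, which had 260 counts against 48202. Whether the counting used strand is not given in the sources used here, so reads of such partners cannot be told apart.

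The promoters of Irf1 and Socs1 are shown because these genes stand at the answering end of the pathway and each holds a match to an interferon motif. Each line gives the 250 bases before the RefSeq start of GRCm38.p6, 5′ to 3′, with the matching bases in capitals. The Irf1 stretch is chr11:53769764-53770013 on the plus strand and the Socs1 stretch is chr16:10785537-10785786 on the minus strand.
Irf1: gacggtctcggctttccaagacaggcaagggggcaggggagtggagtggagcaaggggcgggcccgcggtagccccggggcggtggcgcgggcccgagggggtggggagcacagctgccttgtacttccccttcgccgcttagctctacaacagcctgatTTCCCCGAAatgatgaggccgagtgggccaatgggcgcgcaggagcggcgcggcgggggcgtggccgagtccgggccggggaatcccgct
Socs1: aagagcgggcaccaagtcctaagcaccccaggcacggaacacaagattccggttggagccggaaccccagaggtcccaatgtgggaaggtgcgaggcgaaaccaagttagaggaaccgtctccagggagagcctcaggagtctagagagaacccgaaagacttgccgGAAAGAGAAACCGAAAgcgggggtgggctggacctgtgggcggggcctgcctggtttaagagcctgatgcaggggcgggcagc
The Irf1 promoter shown held the GAS letters TTCNNNGAA once, as TTCCCCGAA, 90 bases before the start. The Socs1 promoter held the ISRE core, which is GAAA, any 2 bases and GAAA again, at 83 and 77 bases before the start, as GAAAGAGAAA and GAAACCGAAA, which overlapped each other. Both strands were searched, from 250 bases before to 50 after each start, in all 32851 promoters of the table. GAS letters were found in 8.3% of them and the ISRE core in 3.44%. Among the 8 genes, GAS letters also occurred before Ifng (TTCAGAGAA, 249 bases) and Socs3 (TTCTTAGAA, 154 bases). The RefSeq start used for Socs3 lies 180 bases from the nearest coding transcript start of GENCODE M21. The promoters of Ifngr1, Ifngr2, Jak1 and Jak2 held neither set of letters in this window. Another Irf1 promoter, from a later start (window chr11:53770223-53770522), also held neither. A match describes letters and not binding.

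Counts summed to between 25407492 and 41616275 per mouse, with a median of 28004882, and 16554 genes passed the filter and were tested. The islet label was checked against 8 endocrine markers, none of which was at 0, with sums between 289118 and 323176 CPM in the 4-week mice and between 140540 and 180127 CPM in the 12-week mice. CPM is the read count of a gene relative to the library total after TMM scaling. The 15 leukocyte markers, none of them at 0 through an age, summed to no more than 202 CPM at 4 weeks (lowest mouse 36.9) and 228 CPM at 6 weeks (lowest 56.8). They summed to at least 869 CPM at 10 weeks (highest 2084) and 1724 CPM at 12 weeks (highest 2032). The 8-week age was split, since 8-week mouse 1 was at 149 CPM and the other 8-week mice were at 591 and 856. In bulk islets, fewer cells of a type and less RNA per cell cannot be told apart.

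Ifng, the ligand, was at or under 0.867 CPM in the mice of 4 and 6 weeks and in 8-week mouse 1, and at 1.74 CPM or more in all other mice. Its level was 0.860, 0.171 and 0 CPM at 4 weeks, 0, 0.0526 and 0.867 at 6 weeks, 0.182, 3.07 and 2.78 at 8 weeks, 6.62, 4.72 and 2.33 at 10 weeks and 5.12, 1.74 and 4.62 at 12 weeks. Mouse 1 at 4 weeks and mouse 3 at 6 weeks stood above the other mice of their age, and 8-week mouse 1 sat among the younger mice. These levels rested on 0 to 23 counts at 4 weeks and 52 to 158 counts at 12 weeks, and a count of 0 allows up to 3 counts, or 0.109 CPM in 4-week mouse 3 and 0.119 CPM in 6-week mouse 1. The 12-week mice were all above the 4-week mice, by a fitted 10.9-fold (log2 fold change 3.45, SE 1.21, adjusted p = 0.029 by edgeR's quasi-likelihood test). The adjusted p rose to 0.0966 without 4-week mouse 2, 0.092 without 4-week mouse 3, 0.0631 without 12-week mouse 1 and 0.0677 without 12-week mouse 3. Its log2 fold change was 2.86 without 4-week mouse 3 and 5.51 without 4-week mouse 1, the lowest and highest values when 1 mouse was left out.

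The receptor chain Ifngr1, which binds the ligand, rose 2.99-fold between 4 and 12 weeks. It was at 32.9, 26.1 and 26.4 CPM at 4 weeks, 23.3, 25.8 and 29.7 at 6 weeks, 27.7, 44.8 and 52.2 at 8 weeks, 85.0, 77.9 and 47.6 at 10 weeks and 76.0, 81.0 and 98.4 at 12 weeks. No 10- or 12-week mouse fell into the range of the 4- and 6-week mice, while 10-week mouse 3 was below the highest 8-week mouse. The log2 fold change of 12 against 4 weeks was 1.58 (SE 0.240, adjusted p = 0.000382).

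Ifngr2, the second receptor chain, rose 2.46-fold. It was at 21.1, 16.4 and 15.3 CPM at 4 weeks, 13.0, 15.3 and 18.4 at 6 weeks, 17.5, 27.6 and 28.6 at 8 weeks, 47.0, 35.9 and 27.5 at 10 weeks and 47.4, 34.5 and 48.1 at 12 weeks. At 6, 8 and 10 weeks the order of the mice was that of Ifngr1. Here too 8-week mouse 1 was at the level of the younger ages, and 10-week mouse 3 was at the level of the other 8-week mice. At 4 weeks mice 2 and 3 changed places. At 12 weeks mouse 2 was the lowest for Ifngr2 and mouse 1 for Ifngr1. The log2 fold change of 12 against 4 weeks was 1.30 (SE 0.234, adjusted p = 0.000823).

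Jak1, the kinase of the Ifngr1 chain and of many other cytokine receptors, made the smallest change of the 8 genes and the most even one. It was at 191, 184 and 181 CPM at 4 weeks, 202, 207 and 206 at 6 weeks, 233, 255 and 254 at 8 weeks, 328, 275 and 257 at 10 weeks and 285, 310 and 337 at 12 weeks. Every age up to 10 weeks lay entirely above the age before it, and 8-week mouse 1 was above all 4- and 6-week mice here, unlike in the other 7 genes. The coefficient of variation among mice of an age was 1.18% to 12.9%. Jak1 rose 1.68-fold between 4 and 12 weeks (log2 fold change 0.75, SE 0.0877, adjusted p = 0.000168).

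Jak2, the kinase of the Ifngr2 chain, rose 2.68-fold. It was at 45.2, 37.4 and 38.0 CPM at 4 weeks, 38.7, 41.9 and 54.4 at 6 weeks, 41.6, 76.1 and 80.6 at 8 weeks, 142, 114 and 81.7 at 10 weeks and 107, 86.5 and 130 at 12 weeks. All 10- and 12-week mice were above all 9 younger mice, and the gap at 8 weeks again lay between mouse 1 and the other 8-week mice. The log2 fold change of 12 against 4 weeks was 1.42 (SE 0.257, adjusted p = 0.000837).

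Irf1, the early target and second-wave transcription factor, rose 2.88-fold. It was at 77.4, 48.6 and 37.8 CPM at 4 weeks, 35.3, 47.6 and 75.2 at 6 weeks, 37.8, 101 and 121 at 8 weeks, 219, 183 and 135 at 10 weeks and 191, 105 and 177 at 12 weeks. The mice with the most Ifng at 4 and 6 weeks (mouse 1 and mouse 3) also had the most Irf1 of their age, and 12-week mouse 2, with the least Ifng of its age, had an Irf1 level within the range of the 8-week mice. The log2 fold change of 12 against 4 weeks was 1.53 (SE 0.423, adjusted p = 0.00904).

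Socs1, the feedback inhibitor that interferon gamma induces, rose 5.6-fold, the largest change after Ifng itself. It was at 3.44, 1.28 and 0.904 CPM at 4 weeks, 0.95, 1.45 and 2.13 at 6 weeks, 1.24, 6.06 and 6.53 at 8 weeks, 15.9, 11.7 and 5.32 at 10 weeks and 11.8, 6.78 and 13.1 at 12 weeks. Mouse 3 at 10 weeks and mouse 2 at 12 weeks were the lowest of their ages, as for Ifng. The log2 fold change of 12 against 4 weeks was 2.48 (SE 0.641, adjusted p = 0.00616), and 3.27 without 4-week mouse 1.

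Socs3, the brake best known for gp130 cytokines, rose 3.84-fold. It was at 19.9, 13.1 and 13.2 CPM at 4 weeks, 11.9, 14.1 and 17.8 at 6 weeks, 18.3, 27.8 and 38.7 at 8 weeks, 77.5, 68.4 and 41.1 at 10 weeks and 62.6, 39.8 and 75.0 at 12 weeks. All 10- and 12-week mice were above all 9 younger mice. The log2 fold change of 12 against 4 weeks was 1.94 (SE 0.326, adjusted p = 0.000591).

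**Figure D1:**
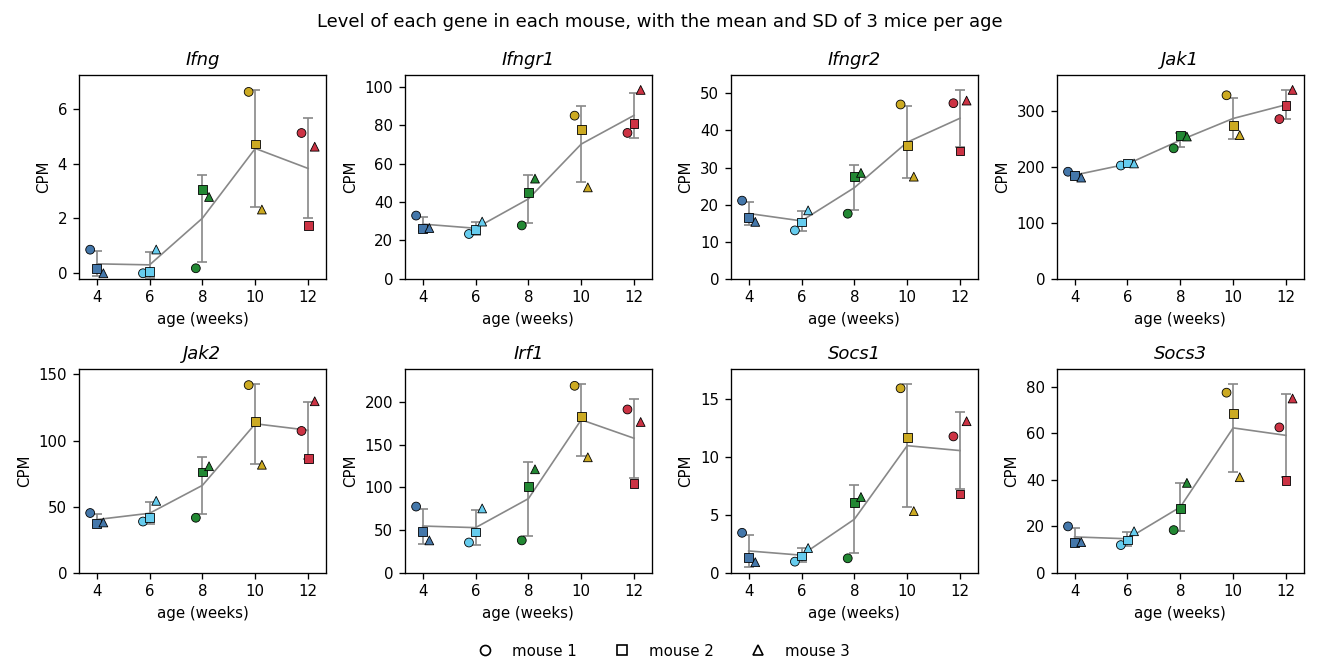
CPM of the 8 genes (vertical axes, linear) against age in weeks, with 1 point per mouse, marked by its replicate number, and a grey line through the mean of 3 mice with its SD. The 10- and 12-week mice lie above all 4- and 6-week mice in every panel, and 8-week mouse 1 (circle) lies with the younger mice in all panels but Jak1.

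Between 4 and 12 weeks all 8 genes were called higher (adjusted p under 0.05, Benjamini-Hochberg over 16554 genes), where 26.3% of all genes tested were called higher. In all 8 the 12-week mice did not overlap the 4-week mice, which was the case for 64.2% of all genes. The median log2 fold change of the 8 was 1.55, against -0.05 over all genes tested. All 8 also passed when the 5 ages were tested together for a difference, with adjusted p from 0.000352 for Jak1 to 0.0316 for Ifng, where 56% of all genes passed. The Ifng call over the 5 ages was lost in 8 of 15 fits that left out 1 mouse, with adjusted p of up to 0.0769. The mice concerned were mice 2 and 3 at 4 weeks, mice 1 and 2 at 6 and at 10 weeks, and mice 1 and 3 at 12 weeks. Other marker lists also rose between 4 and 12 weeks, with 4 of 4 mesenchymal markers (median log2 fold change 1.79) and 5 of 6 immediate-early genes (1.09) called higher. Of 4 endothelial markers 2 were called higher (0.31), and of 5 acinar markers 0 were called (0.98). Acinar sums were 1044 to 9066 CPM at 4 weeks and 2630 to 12156 CPM at 12 weeks. The part of these lists in the result was not tested. In intestinal markers 12-week mouse 1 stood apart, with a mean log2 CPM of 4.85 against 1.70 and 1.34 in the other 12-week mice, and without it 7 of the 8 genes, all but Ifng, were called. Scaling by library totals moved the median of all genes at 12 against 4 weeks to 0.20 and the share of calls that were higher from 49.2% to 78.1%, and the 8 genes were called higher under either scaling.

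Among the steps between neighbouring ages, the largest fitted changes of all 8 genes lay between 6 and 10 weeks. From 6 to 8 weeks all 8 genes had a positive log2 fold change, from 0.27 for Jak1 to 2.78 for Ifng, but edgeR's quasi-likelihood test called 0 of 8 (0% of all genes). DESeq2 and edgeR's exact test also called 0 of 8, where they called 3.29% and 1.85% of all genes. In the edgeR fit an unadjusted p under 0.05 was reached by 7 of 8, all but Irf1, where 18% of all genes reached it, and by 6 of 8 in DESeq2 (3132 of 16525 genes) and in the exact test (2662 of 16554 genes). Jak1 and Socs3 did not overlap between 6 and 8 weeks, as did 19.3% of all genes. Without 8-week mouse 1, the log2 fold changes ran from 0.31 for Jak1 to 3.32 for Ifng, and Ifngr1 was called (0.88, adjusted p = 0.0413), where 4.72% of all genes were called. Without 6-week mouse 3 the Ifng value was 5.84 (adjusted p = 0.184), and over all single omissions it ran from 2.20 to 5.84.

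From 8 to 10 weeks, Ifngr1 (log2 fold change 0.76, SE 0.235, adjusted p = 0.0462) and Socs3 (1.14, SE 0.316, adjusted p = 0.0347) were called higher, 2 of 8 where 8.4% of all genes were called higher. The other 6 had log2 fold changes of 0.21 to 1.25 and did not pass. In 4 of 8 (Jak1, Jak2, Irf1 and Socs3) the ages did not overlap, as in 32.7% of all genes. These calls changed with the mice in the fit, also for mice of other ages. Of the 15 fits that left out 1 mouse, 2 called Ifngr1 (without 8-week mouse 3 or 10-week mouse 3, with adjusted p of up to 0.18 in the rest) and 11 called Socs3. Without 8-week mouse 1, 8-week mouse 2, 10-week mouse 1 or 10-week mouse 2, 0 of 8 and 0% of all genes were called, and without 10-week mouse 3, 5 of 8 and 33.3% of all genes were called. DESeq2 called 5 of 8 and 25.3% of all genes, and a fit of the 8- and 10-week mice alone called 0 of 8 and 0% of all genes, so that the count of the 8 moved with that of the whole table.

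At the first and the last step no gene of the 8 was called. From 4 to 6 weeks log2 fold changes ran from -0.32 for Socs1 to 0.16 for Jak2, and 0 of 8 were called by edgeR, DESeq2 or the exact test (0.0906%, 1.63% and 1.06% of all genes). The unadjusted p was under 0.05 for 0 of 8 and for 8.67% of all genes. From 10 to 12 weeks they ran from -0.25 for Ifng to 0.28 for Ifngr1, with 0 of 8 called by the same tools (0%, 0.0822% and 0.0483% of all genes), and an unadjusted p under 0.05 in 0 of 8 and in 7.51% of all genes. For Ifng the standard error of these steps was 1.38 and 1.0, so that differences of that size were not detectable with these mice.

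**Figure D2:**
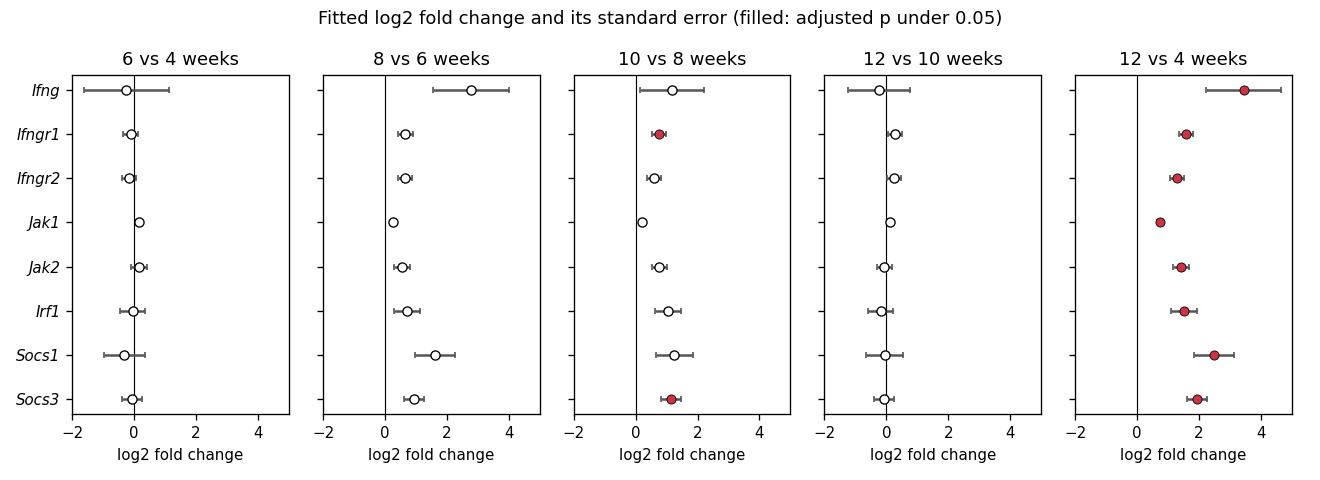
Fitted log2 fold change (horizontal axes) of each gene in the 5 comparisons, with bars of 1 standard error and filled points where the adjusted p was under 0.05. The 8 points of 12 against 4 weeks are filled and lie between 0.75 and 3.45, those of 8 against 6 weeks lie right of 0 and are open, and those of 12 against 10 weeks lie about 0.

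The split at 8 weeks ran through the whole pathway. In 8-week mouse 1, 7 of the 8 genes lay within the range of the 6 mice of 4 and 6 weeks, and Jak1 lay above it, where 67.9% of all genes tested lay within that range. In each of the other 8-week mice all 8 genes lay above the range, against 26.1% and 24.7% of all genes. Their leukocyte markers had a mean log2 CPM of 4.21 and 4.84, and 8-week mouse 1 was at 1.93. The T cell markers of 8-week mouse 1 summed to 5.29 CPM against 87.5 and 125. Its B cell markers did not show this split, with 32.6 CPM against 35.9 and 85.2. They were above all mice of 4 and 6 weeks, of which the highest was at 17.7 CPM.

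Levels of different genes were compared on TPM, which the authors scaled by transcript length. At 4 weeks the order of the means was Jak1 at 49.3 ± 3.22 TPM (SD, n = 3), Irf1 at 26.6 ± 11, Ifngr1 at 19.3 ± 3.37, Jak2 at 15.4 ± 2.26, Socs3 at 10.3 ± 3.04, Ifngr2 at 10.3 ± 2.16, Socs1 at 3.01 ± 2.31 and Ifng at 0.564 ± 0.761. Between neighbours in this order the mice overlapped except for Jak1 over Irf1 and Ifngr2 over Socs1. Within each single 4-week mouse the order of neighbours held, except for Socs3 and Ifngr2. At 12 weeks the order was Jak1 at 109 ± 15.9 TPM, Irf1 at 99.9 ± 30.9, Ifngr1 at 75.7 ± 15.5, Jak2 at 54.3 ± 14.0, Socs3 at 51.9 ± 18.2, Ifngr2 at 33.0 ± 6.96, Socs1 at 21.9 ± 7.74 and Ifng at 8.02 ± 3.90 (SD, n = 3). The only neighbours whose mice did not overlap were Socs1 and Ifng. Within each single 12-week mouse Ifngr1 was also above Jak2, Socs3 above Ifngr2 and Ifngr2 above Socs1. The order of the remaining neighbours differed between the mice. The order of the means was the same at both ages, with the ligand last, while at 10 weeks Irf1 (mean 111 TPM) stood before Jak1 (97.1 TPM).

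Mice of the same age were then compared, to ask whether those with more Ifng also had more of the other 7 genes. After each age mean was taken off log2 CPM, Ifng went along with Irf1 (Pearson r = 0.95, Spearman rho = 0.96, adjusted p = 0.0012 for each, exact permutation within ages). The correlation with Socs1 was 0.92 (rho 0.92) and that with Ifngr2 0.88 (rho 0.91), with the same adjusted p of 0.0012 by exact permutation. It was 0.83 for Jak2 (rho 0.825), 0.81 for Socs3 (rho 0.81), 0.74 for Ifngr1 (rho 0.70) and 0.43 for Jak1 (rho 0.59), with exact permutation p of r adjusted over the 7 relations of 0.0018, 0.0018, 0.00615 and 0.0289. Without the 2 mice farthest from the median of Ifng (6-week mouse 3 and 8-week mouse 1), r was 0.93 for Irf1 and Socs1, 0.82 for Ifngr2, 0.74 for Socs3, 0.65 for Jak2, 0.57 for Ifngr1 and 0.40 for Jak1. The relations of Ifngr1 and Jak1 then no longer passed (adjusted p = 0.0878 and 0.142, exact permutation), with r lower than over 15 mice by more in Ifngr1 than in Jak1. The share of all genes that would pass was not computed, so these relations are not shown to be particular to the 7 genes. Leukocyte markers correlated with Ifng within ages at r = 0.95 as well.

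**Figure D3:**
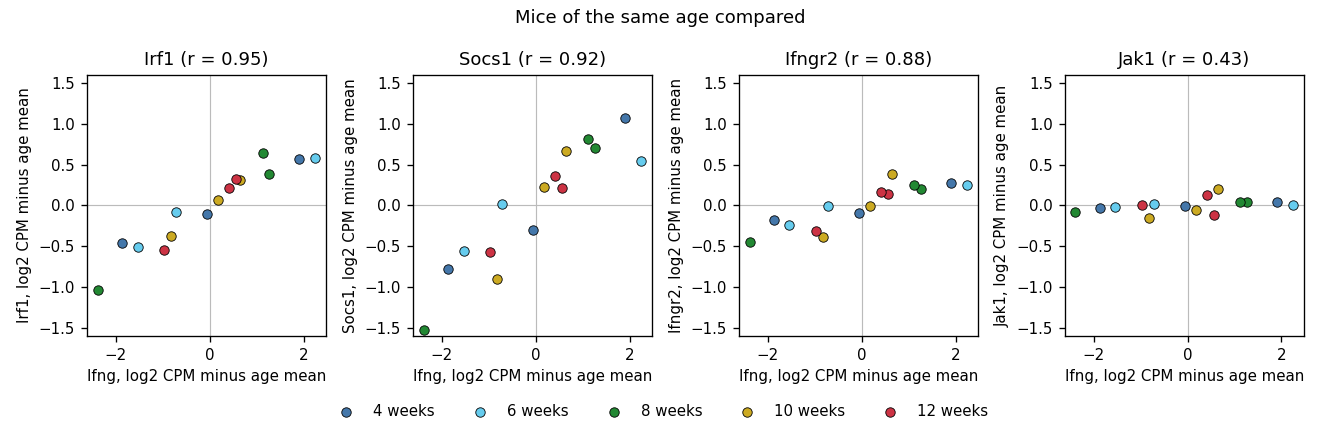
Deviation of Irf1, Socs1, Ifngr2 and Jak1 (vertical axes) from the mean of their age against that of Ifng (horizontal axes), in log2 CPM, with 1 point per mouse coloured by age. The points of Irf1 (r = 0.95) and Socs1 (r = 0.92) climb along a line, and those of Jak1 (r = 0.43) stay close to 0.

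The same mice differed in leukocyte markers, none of which is among the 8 genes, and this relation was added after seeing the data. Within ages, the mean log2 CPM of the 15 leukocyte markers correlated with Ifng at r = 0.95 (rho 0.90), with Irf1 at 0.91 (rho 0.84), with Socs1 at 0.90 (rho 0.91), with Ifngr2 at 0.83 (rho 0.88), with Ifngr1 at 0.80 (rho 0.87), with Jak2 and Socs3 at 0.79 (rho 0.81 and 0.83) and with Jak1 at 0.50 (rho 0.75). Over these 8 relations the adjusted exact permutation p of r was 0.000735 to 0.00129 and that of rho 0.00206 to 0.0054. Without the 2 farthest mice (4-week mouse 1 and 8-week mouse 1), r was between 0.40 for Jak1 and 0.90 for Ifng, with adjusted exact permutation p of 0.013 to 0.022. T cell markers, of which none was absent from every mouse of an age, summed to 0.673 to 25.1 CPM in the mice of 4 and 6 weeks, and to 135 to 331 CPM in those of 10 and 12 weeks. The 3 NK cell markers summed to at most 0.860 CPM in the younger set, with 1 mouse of 6 weeks at 0, and to 2.49 to 7.38 CPM in the older set. The part of these cells in the course of the 8 genes was not tested beyond the fit that follows.

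When the leukocyte level of each mouse was put into the edgeR fit as a covariate, 0 of 8 genes were called at 12 against 4 weeks and 0 of 8 over the 5 ages. In that fit the log2 fold changes of 12 against 4 weeks were 0.39 for Ifngr1, 0.11 for Ifngr2, 0.50 for Jak1, 0.16 for Jak2 and 0.37 for Socs3, and turned to -0.83 for Irf1, -1.14 for Socs1 and -3.80 for Ifng, with adjusted p of 0.296 to 0.923. The unadjusted p was under 0.05 for Ifng (0.00594), Jak1 (0.0112) and Irf1 (0.0449) in edgeR, and over the 5 ages for Ifng and Ifngr1. At 12 against 4 weeks that fit called 0 of all 16554 genes, with 1678 at an unadjusted p under 0.05, and over the 5 ages it called 56 genes (0.338%). The markers stood at a mean log2 CPM of -0.84 to 2.14 at 4 weeks and 5.86 to 6.23 at 12 weeks, so that age and leukocyte content cannot be told apart between these ages.

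Pairs of genes were compared as ratios within each mouse, in which the scaling between libraries largely cancels, and 4 ratios were tested. Only their change with age is read here, since CPM is not set per length. The ratio of Jak1 to Jak2 fell by 0.66 on the log2 scale between 4 and 12 weeks, and it was 2.21 ± 0.11, 2.20 ± 0.25, 1.96 ± 0.45, 1.37 ± 0.24 and 1.54 ± 0.26 (log2, SD, n = 3) from the youngest to the oldest age. Over the 5 ages it differed with an adjusted p of 0.0373 by an exact permutation test over all 1401400 divisions of the 15 mice. The ratio of Irf1 to Socs1 fell by 1.07 on the log2 scale, from 4.97 ± 0.44 at 4 weeks and 5.07 ± 0.08 at 6 weeks to 4.37 ± 0.43 at 8, 4.13 ± 0.46 at 10 and 3.90 ± 0.14 at 12 weeks (exact permutation, adjusted p = 0.0373). In either ratio the 4- and 12-week mice did not overlap. Leaving out single mice raised the adjusted p to as much as 0.0957 for Jak1 to Jak2, with 10 of 15 omissions over the threshold, and 0.0866 for Irf1 to Socs1, with 9 of 15.

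The ratio of the receptor chains Ifngr1 to Ifngr2 was 0.70 ± 0.07 at 4 weeks and 0.98 ± 0.28 at 12 weeks (log2, SD, n = 3), and no difference over the ages was shown (exact permutation, adjusted p = 0.267). Without 12-week mouse 1 the adjusted p was 0.0469. The ratio of Socs1 to Socs3 was -3.19 ± 0.63 at 4 weeks and -2.49 ± 0.07 at 12 weeks (adjusted p = 0.297, exact permutation). With 3 mice against 3, the smallest exact p of 12 against 4 weeks is 0.1, which Jak1 to Jak2 and Irf1 to Socs1 reached.

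**Figure D4:**
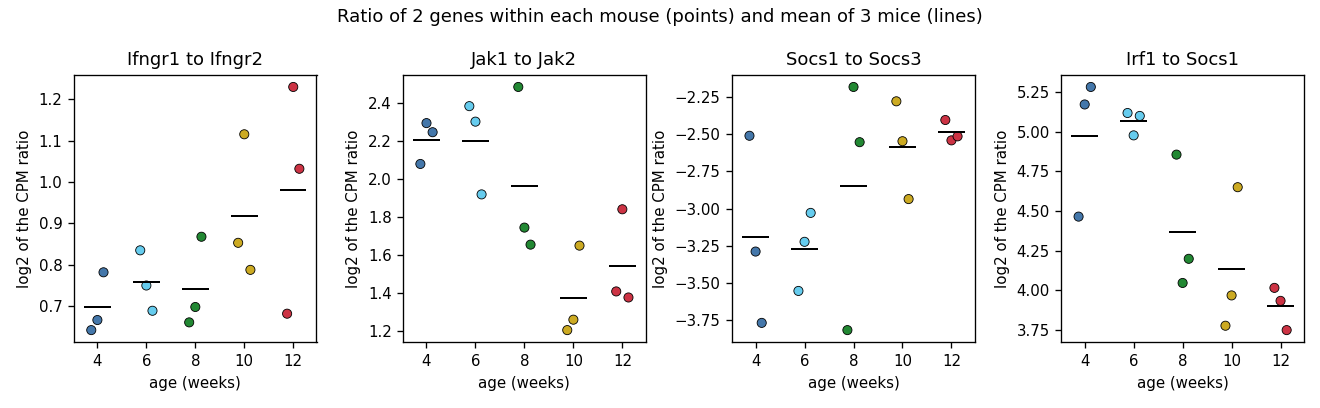
Log2 of the CPM ratio of 2 genes within each mouse (points, vertical axes, which do not start at 0) against age in weeks, with a line at the mean of 3 mice. Jak1 to Jak2 and Irf1 to Socs1 fall after 6 weeks. In Irf1 to Socs1 and Ifngr1 to Ifngr2, 8-week mouse 1 lies within the range of the younger mice. It lies just above them in Jak1 to Jak2, at 2.48, and just below them in Socs1 to Socs3, at -3.82.

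Genes known to drive Ifng production were compared between 12 and 4 weeks, and their relation to Ifng was not tested. The 10 inducers were Il12a, Il12b, Il18, their receptor chains, Stat4, Tbx21 and Eomes. Of these, 9 were called higher at 12 against 4 weeks, where 26.3% of all genes were called higher. Il18rap (log2 fold change 2.90, adjusted p = 0.0518 in edgeR) was not. The median log2 fold change was 3.86, against -0.05 for all genes, with Tbx21, the transcription factor of type 1 helper T cells, at 4.36 (SE 1.19), Eomes, its relative in NK cells and cytotoxic T cells, at 6.08 (SE 1.17), and Stat4, which carries the Il12 signal, at 4.09 (SE 0.747). Il12rb2, the signalling chain of the Il12 receptor, was at 3.75 (SE 0.802). The 6 T cell markers were all called higher in the same comparison, with a median log2 fold change of 4.88. The part of T cell content in the rise of the inducers was not tested.

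Of 10 transducers and transcription factors, 9 were called higher, where 26.3% of all genes were, and Batf2 (2.22, adjusted p = 0.0934 in edgeR) was not. Irf8 was at 3.31, Ciita, the master regulator of MHC class II genes, at 3.96, and Nlrc5, its class I counterpart, at 3.21. Stat3, which Socs3 restrains through gp130, rose by 0.38 (SE 0.120), with overlapping mice. Of the remaining Jak kinases, Jak3, found mostly in lymphocytes, rose by 2.09 (SE 0.385) and Tyk2 by 0.77 (SE 0.125), the latter close to Jak1.

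Of 10 known targets of interferon gamma, 8 were called higher, where 26.3% of all genes were. Among the 8 were H2-Aa at 3.50, B2m at 3.03, Psmb8 at 2.60, Tap1 at 2.37 and Cd274, the ligand of an inhibitory T cell receptor, at 2.15. The chemokines Cxcl9 (3.11, adjusted p = 0.104) and Cxcl10 (2.35, adjusted p = 0.102) did not pass, with standard errors of 1.54 and 1.15. The median of the 10 was 2.71, against -0.05 for all genes tested. The 15 leukocyte markers, all called higher, had a median of 4.74.

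The remaining brakes on cytokine signalling moved in both directions, as did the genes tested as a whole. Of 15, 6 were called higher and 5 lower at 12 against 4 weeks, where 26.3% of all genes were called higher and 27.2% lower. The median log2 fold change of the 15 was 0.15. Ptpn6, a phosphatase of blood cells, rose by 1.72 (SE 0.246), Ptpn1 by 0.74, Ptpn2, which dephosphorylates Jak1, by 0.32, and Socs2 and Usp18 by 0.54. Socs5 (-0.23), Socs7 (-0.56), Ptpn11 (-0.45), Pias2 (-0.40) and Pias3 (-0.29) were called lower under TMM scaling, but with library totals Socs7 and Ptpn11 alone of these remained called lower (-0.32 and -0.21) and Socs5 turned to 0.01. At 10 against 8 weeks Ptpn1, Ptpn2 and Ptpn6 were called higher, where 8.4% of all genes were. Pias2 and Pias3 were called lower, where 8.37% of all genes were called lower. The last pair lost the call with library totals.

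Of 7 chains of related receptors, 6 were called higher, where 26.3% of all genes were. They ran from Il6st, the gp130 chain, at 0.43 to Il10ra, found mostly on leukocytes, at 3.46. Ifnar1 and Ifnar2, the chains of the type I interferon receptor, rose by 0.46 and 0.89, beside 1.58 and 1.30 for Ifngr1 and Ifngr2, and the difference was not tested. Il6ra was called lower (-0.54, adjusted p = 0.00322), a call lost with library totals (adjusted p = 0.0671). Of the cytokines known to induce Socs3, 5 of 6 passed the filter and 4 were called higher, where 26.3% of all genes were. These 4 were Osm at 3.39, Il1b at 3.01, Il10 at 2.77 and Lif at 1.53. Il6 had a log2 fold change of 1.1 and did not pass (SE 0.798, adjusted p = 0.262), and Csf3, with at most 12 counts in any mouse, was not tested.

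Genes with the most similar course over the 15 mice were named by Pearson correlation of log2 CPM over all genes tested, as a description in which mice share age and leukocyte level. Nearest to Ifng were Pdcd1 (r = 0.991), the gene of the inhibitory receptor PD-1, Hk3, Foxp3, the factor of regulatory T cells, and Gbp2, all with r of at least 0.987. Nearest to Irf1 were Ube2l6 (r = 0.995), Tap1, H2-Q4 and Ms4a6d. Nearest to Socs1 were Ctsc (r = 0.995), Slc15a3, AW112010, H2-D1 and Ly6a. Nearest to Socs3 were M6pr (r = 0.993), Rhog, S100a4, Rap2b and Mdfic.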

How the data were processed

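Islets of 15 NOD females were profiled by bulk RNA-seq. Reads were trimmed, aligned and counted in CLC Genomics Workbench with default settings, and the labels name the build mm10. The annotation and the strand setting are not given in the sources used here. The deposited counts are whole reads per gene without normalization. The deposited TPM were scaled by the authors for transcript length and depth. A further 30 per-sample columns (RPKM and CPM) were not used. Of the genes matched to GENCODE M21, 88.4% had the same coordinates.

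Counts were filtered with filterByExpr, scaled by TMM and fitted with glmQLFit in edgeR 4.0.16 (R 4.3.3), with 1 mean per age. Contrasts were tested with glmQLFTest and adjusted by Benjamini-Hochberg over 16554 genes, with a threshold of 0.05. The SE is the log2 fold change divided by the square root of F. Log2 CPM used a prior count of 2. Ratios and correlations were tested two-sided by exact permutation in Python 3.11.15, the latter over 7776 rearrangements within ages. At this depth 3 counts are 0.0753 to 0.128 CPM, which covers counting error only.

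The members, the gene lists and the tests were chosen with earlier results of these data known, and the lists come from general knowledge. Named genes are the members, the listed genes and, for Ifng, Irf1, Socs1 and Socs3, the 5 genes with the highest correlation, of which some are not reported here. Alternatives were DESeq2 size factors, library totals, no filter, only the ages compared, the edgeR exact test, DESeq2 1.42.0, each mouse left out, the replicate number as a block, a leukocyte covariate and a prior count of 0.5. The relation of the members to leukocyte markers within ages was added after seeing the data. Replicates are different mice. The pipeline was tested on simulated data. Matplotlib 3.10.9 drew the figures.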

Additional observations from a re-analysis of the deposited data

How the results depend on the processing

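The 8 calls at 12 against 4 weeks remained under DESeq2 size factors, library totals, no filter, only the ages compared, the edgeR exact test and DESeq2, 7 were called with the replicate block, and 7 to 8 when 1 mouse was left out. A prior count of 0.5 changed no call among the 4 ratios and the 7 correlations with Ifng. With the leukocyte covariate 0 were called, at 12 against 4 weeks and over the 5 ages, and Ifng (-3.80), Irf1 (-0.83) and Socs1 (-1.14) changed sign at 12 against 4 weeks. So did Ifng (-0.62), Jak2 (-0.056), Irf1 (-0.47) and Socs1 (-0.32) at 8 against 6 weeks, and Ifng (-1.40) and Socs1 (-0.040) at 10 against 8 weeks. The cause was not tested. The 2 calls at 10 against 8 weeks became 1 without the filter, 0 with only the ages compared, 0 with the replicate block, 0 with the leukocyte covariate, 5 with DESeq2, and 0 to 5 when 1 mouse was left out. At 8 against 6 weeks leaving out 1 mouse gave 0 to 1 calls.

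Uncalled values changed sign when 1 mouse was left out. At 6 against 4 weeks the log2 fold changes then ran from -3.31 to 1.81 for Ifng, -0.21 to 0.00079 for Ifngr1, -0.40 to 0.29 for Irf1, -0.66 to 0.47 for Socs1 and -0.25 to 0.15 for Socs3. At 12 against 10 weeks they ran from -0.57 to 0.12 for Ifng, -0.25 to 0.14 for Jak2, -0.35 to 0.037 for Irf1, -0.39 to 0.31 for Socs1 and -0.30 to 0.14 for Socs3. The ratio changes between 12 and 4 weeks ran from 0.16 to 0.44 for Ifngr1 to Ifngr2, -0.81 to -0.58 for Jak1 to Jak2 and -1.33 to -0.92 for Irf1 to Socs1, and the within-age correlation of Ifng with Jak1 from 0.32 to 0.55. Without the 2 mice farthest from the median of Ifng the correlation was 0.57 for Ifngr1 and 0.40 for Jak1.

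Every age was a different set of animals, so the replicate numbers do not pair mice. Same-numbered mice were compared by Pearson r of log2 CPM over all genes tested, with age means taken off. This r was over 0.1 in 0 of 3 pairs at 6 against 4, 10 against 8 and 12 against 10 weeks. It was over 0.1 in 1 pair at 12 against 4 and in 2 at 8 against 6 (0.51 and 0.49). The lowest r was -0.50, for mouse 1 at 6 against 4 weeks. With the replicate block, Ifng at 12 against 4 weeks had an adjusted p of 0.0534, and 3 of 40 calls of single genes changed. The depth limits Ifng at 4 and 6 weeks.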
